A study of Mus musculus and Sus scrofa with 30 samples.

Results

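The genes described here encode the coat of caveolae: the caveolins Cav1 and Cav2, the cavins Cavin1, Cavin2, Cavin3 and Cavin4, and the ATPase Ehd2. They were found by gene name, ignoring case, in 2 RNA-seq expression tables, one from mouse 3T3-L1 cells and one from porcine dedifferentiated fat (DFAT) cells. All 7 were present once in each table, of 24843 mouse and 34307 porcine genes listed. Both cell systems were put through an adipogenic induction and harvested on day 5. During induction they received DMSO (vehicle), dicoumarol, magnolol, dicoumarol together with magnolol (the combination) or rosiglitazone, with 3 libraries per group and 15 per system. The mouse mix, shared by all 5 mouse groups, held 0.75 µg/mL insulin, 75 nM dexamethasone, 37.5 µM isobutyl methylxanthine (IBMX) and 10% serum. In all 5 porcine groups the mix held biotin (20 µM), pantothenate (10 µM), IBMX (12.5 µM), dexamethasone (0.5 µM) and 2% serum, and no insulin is named for it. 3T3-L1 is an established mouse line of embryonic fibroblasts that can become fat cells. DFAT cells are proliferating cells obtained from mature fat cells, here from porcine subcutaneous fat, and the labels do not say how many pigs they came from. Dicoumarol is a coumarin anticoagulant, magnolol is a compound of magnolia bark, and rosiglitazone is a drug that activates the nuclear receptor PPARγ. The sources used here give no doses for them.

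Caveolae are small flask-shaped pits of the plasma membrane and are especially abundant on fat cells, where they buffer membrane tension and hold signalling and transport proteins. Caveolin-1 inserts into the membrane as a large oligomer and takes caveolin-2 with it, while cavin-1 assembles on the inner face into a coat that recruits cavin-2 or cavin-3. Cavin-4 belongs to muscle, and EHD2 forms a ring at the neck of the pit that holds it at the membrane. Loss of caveolin-1 or of cavin-1 is a known cause of lipodystrophy.

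Values are counts normalized by the authors, so a difference in a gene's level may come from fewer cells carrying it or from less RNA per cell, which cannot be told apart in bulk libraries. Totals of normalized counts, rounded, were 26200000 to 28400000 in the mouse libraries and 56900000 to 69300000 in the porcine ones. The spacing of low values put the reads assigned to listed genes at about 22800000 to 30700000 per mouse library and 44800000 to 70500000 per porcine library. Reads not assigned to a gene are not in these numbers. The labels do not say that replicates were separate cultures, so p-values measure the spread between these libraries. Markers of endothelial cells, which also carry many caveolae, were low: 7 of 8 listed in mouse and 7 of 9 in pig had means under 10 normalized counts, and KDR was listed at 0 in pig. RNA levels of adipocyte markers differed between the groups, and how far the cells had differentiated was not tested. In mouse, 13 tested adipocyte markers had median log2 fold changes against vehicle of 1.02 (dicoumarol), 2.21 (magnolol), 2.46 (combination) and 3.15 (rosiglitazone). At a limma adjusted p under 0.05, 0, 10, 13 and 13 of them were higher, beside 0%, 1.07%, 3.86% and 20.3% of all genes. In pig these medians were 0.72, 1.42, 2.54 and 2.86. The porcine counts were 6, 10, 12 and 12 of 13, beside 0.911%, 2.96%, 6.11% and 5.8% of all genes. The part of this difference in the results on the coat genes was not tested.

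The caveolar coat genes had smaller log2 fold changes than these markers. In mouse, no member was called against vehicle with dicoumarol, magnolol or the combination, and 2 of the 6 that could be tested, Cavin1 and Ehd2, rose with rosiglitazone. In pig, CAVIN1 rose in the rosiglitazone, magnolol and combination groups, CAVIN2 and CAVIN3 rose with the combination, and CAV2 rose with rosiglitazone. No tested member was called lower against vehicle in either system. These calls are from a fit without the replicate numbers. With the replicate number as a block, 4 of 6 mouse members were called with rosiglitazone, where 49.8% of all genes tested were called. Of these, Cavin3 was lower. In that fit Ehd2 was called higher with the mouse combination, where 13.5% of all genes tested were called. A gene was called when limma's moderated test on log2(value + 1), with Benjamini-Hochberg adjustment over all genes of the table, gave an adjusted p under 0.05. Cavin4 did not enter these tests, since its mean over the 15 libraries was under 10 normalized counts in both systems.

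**Figure D1:**
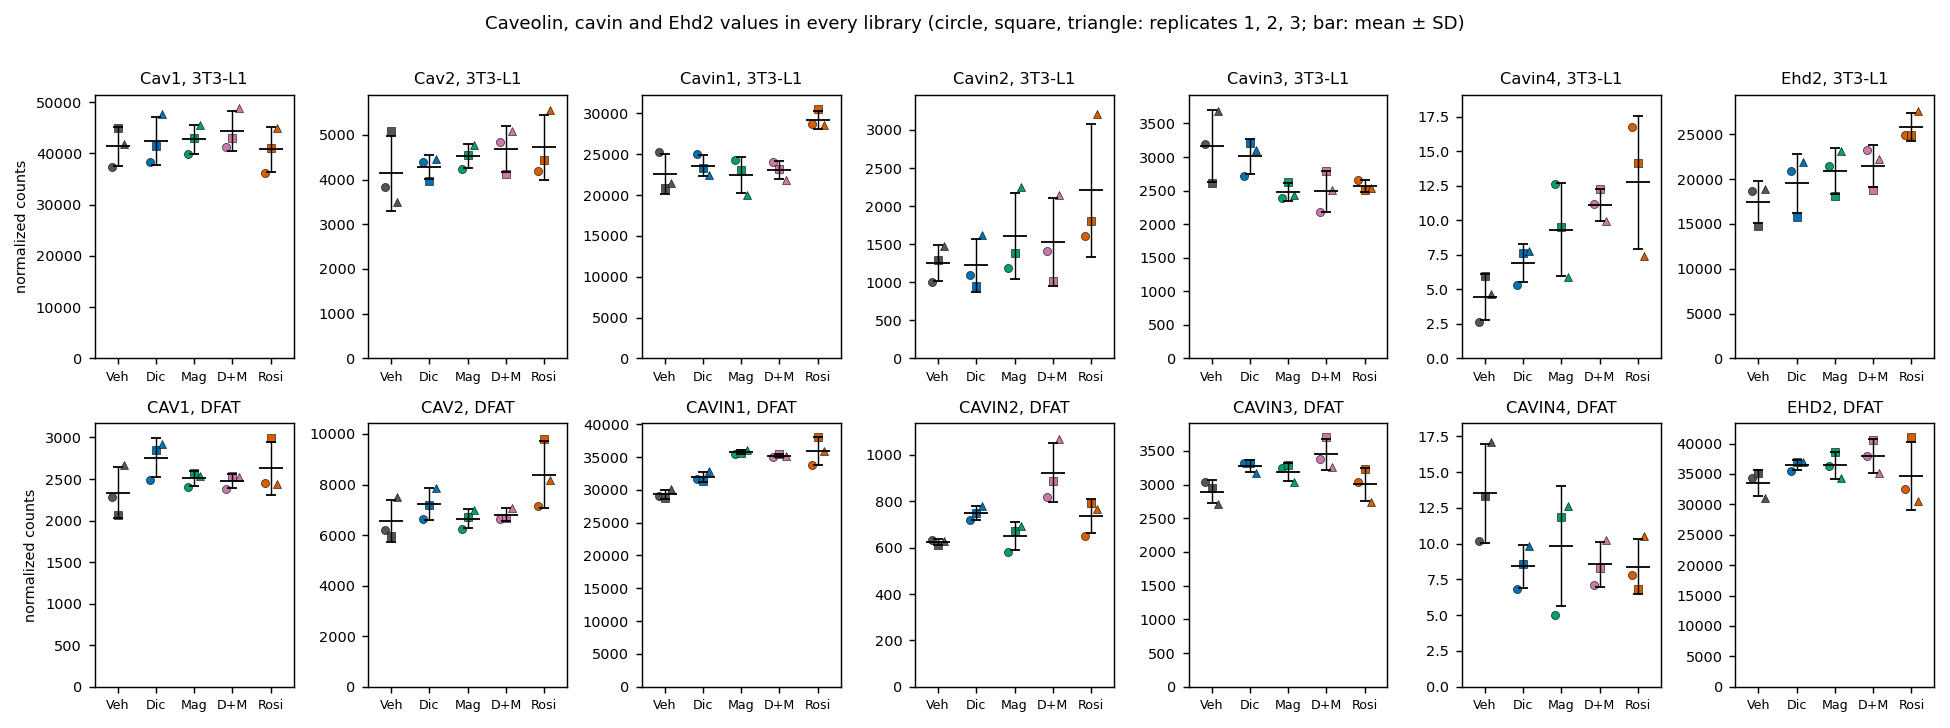
Normalized counts (vertical axes, from 0, scaled separately per panel) of the 7 genes in every library of 3T3-L1 (upper row) and DFAT cells (lower row); Veh, Dic, Mag, D+M and Rosi are vehicle, dicoumarol, magnolol, the combination and rosiglitazone. Points are replicates 1 to 3 and bars the mean ± SD of 3 libraries. Cavin1 and Ehd2 sit higher with rosiglitazone in mouse, and CAVIN1 sits higher with magnolol, the combination and rosiglitazone in pig.

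The 4 comparisons with vehicle in a system share the same 3 vehicle libraries, so their values are not independent of each other. Against vehicle in mouse, 0 of 6 tested members were called for dicoumarol (background 0% of 15723 genes tested), 0 for magnolol (background 1.23%) and 0 for the combination (background 5.22%). At an unadjusted p under 0.05, limma gave 0, 1 and 2 members in these comparisons, beside 2.5%, 10% and 17.1% of all genes tested. With rosiglitazone 2 of 6 were called, both higher, where 40.1% of all genes tested were called and 20.3% were called higher. The median log2 fold change of the 6 members with rosiglitazone was 0.29, beside 0.00 over all genes tested. A share of 2 in 6 is not above the background of that comparison. The rosiglitazone and vehicle libraries did not overlap for 3 of 6 members, Cavin1, Cavin2 and Ehd2, beside 45.6% of all genes tested.

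In pig, 0 of 6 members were called with dicoumarol (background 1.94% of 14819 genes tested), with 4 at an unadjusted p under 0.05 in limma, beside 10.1% of all genes. The counts were 1 of 6 with magnolol (background 4.22%), 3 of 6 with the combination (background 10.2%) and 2 of 6 with rosiglitazone (background 10.8%), and every call was higher. The called-higher share of all genes was 2.96%, 6.11% and 5.8% in these 3 comparisons. With dicoumarol, magnolol, the combination and rosiglitazone, all libraries lay above vehicle for 4, 2, 3 and 2 of 6 members. The shares of all genes tested were 9.8%, 10.9%, 14.2% and 10.5%. All 6 porcine members had a log2 fold change above 0 in each of the 4 comparisons with vehicle. Their medians were 0.16 for dicoumarol, 0.12 for magnolol, 0.22 for the combination and 0.20 for rosiglitazone, beside medians of all genes tested between -0.01 and 0.00.

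**Figure D2:**
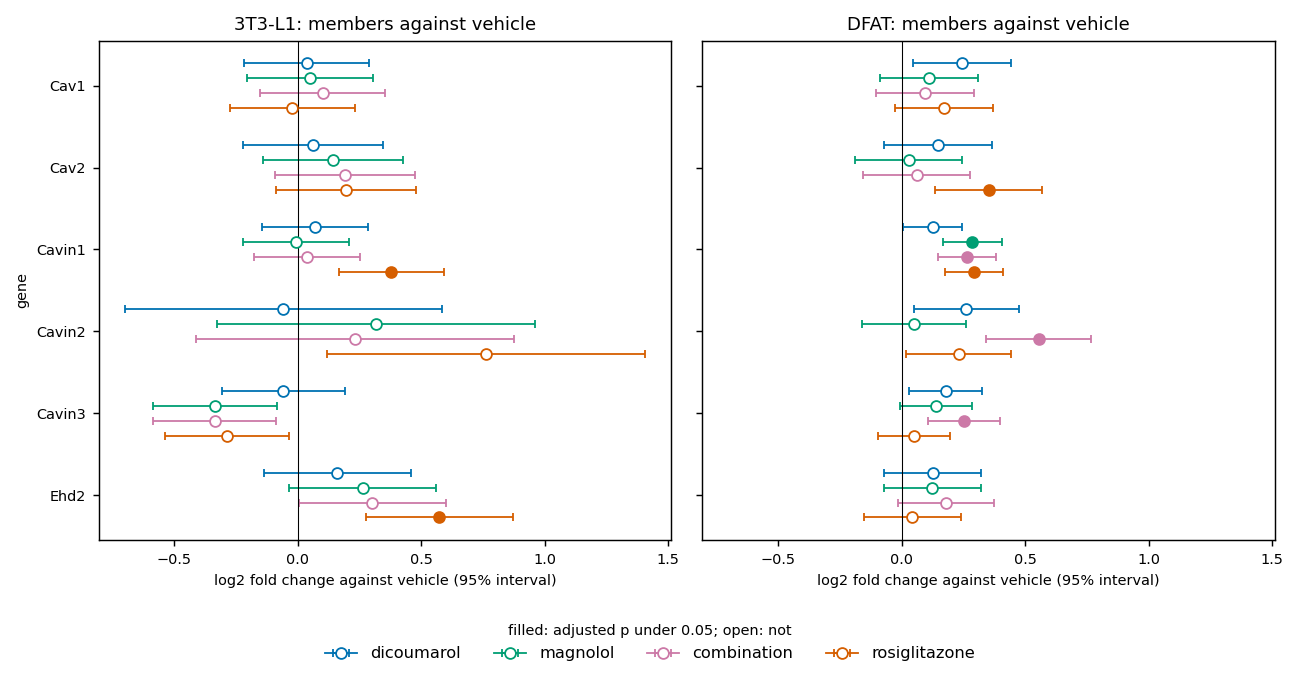
Log2 fold change against vehicle (horizontal axis, on the log2(value + 1) scale) of the 6 tested genes in 3T3-L1 (left) and DFAT cells (right), with 95% intervals; colour marks the treatment and filled circles an adjusted p under 0.05. In mouse the 2 filled circles are Cavin1 and Ehd2 with rosiglitazone, and the Cavin2 intervals are the widest.

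Caveolins come first. Mouse Cav1 (ENSMUSG00000007655), the gene of the structural protein of caveolae, lies on the plus strand of chromosome 6 from 17306334 to 17341451 in the coordinates of the table. Cav2 (ENSMUSG00000000058), whose product needs caveolin-1 to reach the membrane, lies beside it from 17281184 to 17289114. Exon lengths from GENCODE M21 put Cav1 first among the 7 mouse genes per length, at 12014 normalized counts per kilobase of exon in vehicle. Cavin1 followed at 6285, Ehd2 at 3408, Cavin3 at 1902, Cav2 at 1242, Cavin2 at 411 and Cavin4 at 2.16. By its mean over all 15 libraries, Cav1 ranked 51 among all mouse genes listed.

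Cav1 in vehicle read 37334, 44974 and 41816 normalized counts in replicates 1, 2 and 3. With rosiglitazone it read 36229, 41097 and 44957. The 2 ranges nearly coincide, and the ranges of all 5 mouse groups overlap for Cav1. The log2 fold changes against vehicle ran from -0.02 with rosiglitazone (95% interval -0.28 to 0.23) to 0.10 with the combination (95% interval -0.15 to 0.35), and none was called. In percent, the rosiglitazone interval allows a level from 17.4% lower to 17.3% higher.

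Mouse Cav2 was more scattered in vehicle, at 3830, 5090 and 3507, than with dicoumarol, at 4401, 3971 and 4453. With rosiglitazone it read 4184, 4430 and 5550. The high vehicle replicate 2 lies inside the rosiglitazone range, and the order of the group means, from 4142 in vehicle to 4721 with rosiglitazone, was one of overlapping neighbours throughout. Against vehicle, rosiglitazone gave a log2 fold change of 0.20 (SE 0.13, adjusted p = 0.26). Without vehicle replicate 2 it was 0.35, with an adjusted p of 0.0377.

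Porcine CAV1 (ENSSSCG00000016634) and CAV2 (ENSSSCG00000016635) are also neighbours, on the minus strand of chromosome 18 from 29649992 to 29682465 and from 29699020 to 29707277 in the table's coordinates. CAV1 read 2280, 2063 and 2670 in vehicle and 2491, 2853 and 2927 with dicoumarol, the group with its highest mean. These 2 ranges overlap between 2491 and 2670. Dicoumarol gave a log2 fold change of 0.24 (SE 0.09, adjusted p = 0.316), and with the other treatments it lay between 0.09 and 0.17 with no call.

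CAV2 was the only caveolin called in either system. It read 6182, 5957 and 7519 in vehicle and 7158, 9810 and 8198 with rosiglitazone, so the lowest rosiglitazone library lies under the highest vehicle library. The log2 fold change was 0.35 (SE 0.10, adjusted p = 0.0342). The call was lost without a filter on low genes (0.102), without the variance trend (0.0879) and with only the 2 groups compared (0.124). Without rosiglitazone replicate 2, the library at 9810, the log2 fold change was 0.23 with an adjusted p of 0.13, and it also lost the call without rosiglitazone replicate 3 (0.0753), vehicle replicate 1 (0.134) or vehicle replicate 2 (0.156).

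Rosiglitazone replicate 2 of the porcine cells was the highest of its group for CAV1 (2998), CAV2 (9810), CAVIN1 (38098), CAVIN2 (792), CAVIN3 (3230) and EHD2 (41037). The same library had the highest summed level of the 7 smooth muscle or myofibroblast markers, 214154 normalized counts, beside 139890 and 161951 in replicates 1 and 3 and 112675 to 134118 in vehicle. Its summed adipocyte markers, 80505, were the lowest of the 3 rosiglitazone libraries. The part of this in the rosiglitazone results was not tested.

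Cavin1, whose product builds the coat with caveolin-1, was called in both systems. Mouse Cavin1 (ENSMUSG00000004044) lies on the minus strand of chromosome 11 from 100847559 to 100861713. It read 25323, 20804 and 21503 in vehicle (22543 ± 2432, SD, n = 3) and 28654, 30471 and 28516 with rosiglitazone (29214 ± 1091, SD, n = 3). All 3 rosiglitazone libraries lay above all 12 others, which ran from 19961 to 25323. Against vehicle this was a log2 fold change of 0.38 (SE 0.10, adjusted p = 0.00715), a level 30% higher. With dicoumarol, magnolol and the combination the log2 fold changes were 0.07, -0.01 and 0.04, and their libraries overlapped those of vehicle. The rosiglitazone call was lost when only the rosiglitazone and vehicle libraries entered the fit (adjusted p = 0.0613).

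Ehd2 (ENSMUSG00000074364), on the minus strand of mouse chromosome 7 from 15680883 to 15701492, followed the same order of treatments as the adipocyte markers. It read 18700, 14735 and 18897 in vehicle. With rosiglitazone it read 24916, 24876 and 27597, above every library of the other 4 groups. The means in between were 19551 (dicoumarol), 20896 (magnolol) and 21452 (combination), and these neighbours overlap. The rosiglitazone log2 fold change was 0.57 (SE 0.14, adjusted p = 0.00417), a level 48.7% higher, and this call held in every alternative run. For the combination it was 0.30 (SE 0.14, adjusted p = 0.282), and with the replicate number as a block the adjusted p was 0.02, making it the 1 member of 6 called in that fit (background 13.5%).

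The promoters of these 2 called mouse genes, and of Cav1, which was not called, are shown as the 250 bases before the RefSeq start (GRCm38.p6, read along the gene). Capitals mark matches on either strand to 3 motifs. A GC box was searched as GGGCGG, the CCAAT box by the letters of its name, and a TEAD element as GGAATG. Positions are counted back from the start. These windows are in GRCm38.p6 and cannot be set against the table's gene positions, whose build was not settled. The Cavin1 window is chr11:100970618-100970867 (minus strand), that of Ehd2 chr7:15967536-15967785 (minus strand) and that of Cav1 chr6:17306085-17306334 (plus strand). 
Cavin1: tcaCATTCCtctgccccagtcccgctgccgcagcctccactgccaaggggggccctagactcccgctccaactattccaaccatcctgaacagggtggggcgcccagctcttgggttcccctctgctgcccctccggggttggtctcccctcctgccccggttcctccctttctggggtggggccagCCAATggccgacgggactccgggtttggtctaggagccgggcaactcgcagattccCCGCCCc
Ehd2: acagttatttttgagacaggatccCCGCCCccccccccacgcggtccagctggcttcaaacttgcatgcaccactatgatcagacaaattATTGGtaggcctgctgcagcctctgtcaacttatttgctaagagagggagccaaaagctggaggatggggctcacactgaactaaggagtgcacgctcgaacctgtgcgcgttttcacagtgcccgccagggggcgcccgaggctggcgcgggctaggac
Cav1: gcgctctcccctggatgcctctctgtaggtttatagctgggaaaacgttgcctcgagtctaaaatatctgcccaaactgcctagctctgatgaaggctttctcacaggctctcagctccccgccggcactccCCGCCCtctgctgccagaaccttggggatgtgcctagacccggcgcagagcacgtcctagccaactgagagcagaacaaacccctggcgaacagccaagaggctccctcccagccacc
Each of the 3 holds 1 GC box, a motif found in 32.7% of all 32851 RefSeq promoters of this length. In Cavin1 it lies 7 to 2 bases before the start, in Cav1 118 to 113 and in Ehd2 226 to 221. Cavin1 and Ehd2 also hold 1 CCAAT box (33.8% of all promoters), at 63 to 59 and 160 to 156 bases before the start, and Cavin1 holds a TEAD element (12.6%) at 247 to 242. The nuclear receptor element AGGTCA, found in 14% of promoters, and the C/EBP element TTGCNNAA, found in 9.56%, have no match in these 3 windows. GC content was 67.6% for Cavin1, 58% for Ehd2 and 59.6% for Cav1, beside a median of 52.4% over all promoters. These matches describe the letters and were not tied to the expression values by any test. Cavin3 had no promoter matched.

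Porcine CAVIN1 (ENSSSCG00000035446) lies on the plus strand of chromosome 12 from 20372476 to 20389509. Of the 6 tested porcine members it had the smallest standard error in the fit. It read 29108, 28749 and 30067 in vehicle and 31585, 31410 and 32866 with dicoumarol. Magnolol gave 35535, 35546 and 36107, the combination 35073, 35419 and 35103, and rosiglitazone 33761, 38098 and 35930. Every treated library lay above every vehicle library. Vehicle was lowest, dicoumarol next and the other 3 groups above both, without overlap. The combination libraries also lay below those of magnolol. Neither the combination against magnolol (log2 difference -0.02) nor against dicoumarol (0.14, adjusted p = 0.284) was called. Against vehicle the log2 fold change was 0.29 with magnolol (adjusted p = 0.00499) and 0.26 with the combination (adjusted p = 0.00493). With rosiglitazone it was 0.29 (adjusted p = 0.00182), each with SE 0.06. With dicoumarol it was 0.12 and not called (adjusted p = 0.454). The rosiglitazone call was lost when only the 2 groups compared entered the fit (adjusted p = 0.0508), and the magnolol and combination calls held in every alternative run.

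Porcine EHD2 (ENSSSCG00000023371), on the plus strand of chromosome 6 from 53423563 to 53443224, was not called against vehicle. It read 34248, 35092 and 31036 in vehicle and 32564, 41037 and 30527 with rosiglitazone, whose range encloses that of vehicle. Its log2 fold change with rosiglitazone was 0.04 (95% interval -0.15 to 0.24). With dicoumarol its libraries, 35526 to 36951, lay above those of vehicle, and the log2 fold change of 0.13 had an adjusted p of 0.739. Libraries of 9.8% of all genes tested lay above vehicle in that comparison. Mouse and porcine levels come from tables normalized separately and were not tested against each other.

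Cavin2, whose product shapes and stabilizes the coat, had the largest coefficient of variation over the 15 mouse libraries among the 6 tested members, 38.5%. Mouse Cavin2 (ENSMUSG00000045954) lies on the plus strand of chromosome 1 from 51328285 to 51342119. It read 1004, 1289 and 1475 in vehicle and 1608, 1808 and 3208 with rosiglitazone. The rosiglitazone libraries lay above those of vehicle, but replicate 3 stood far above the other two. Replicate 3 was also the highest Cavin2 library in each of the other 4 groups, from 1475 in vehicle to 2249 with magnolol. Rosiglitazone gave a log2 fold change of 0.76 (SE 0.30, 95% interval 0.12 to 1.41), and the adjusted p of 0.0559 missed the threshold. With the replicate number as a block, the adjusted p was 0.000236, and 4 of 6 members were called for rosiglitazone in that fit (background 49.8%). Over the whole mouse table, same-numbered libraries of different groups deviated together in 30 of 30 pairs, so this block uses a pairing that the data bear.

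**Figure D3:**
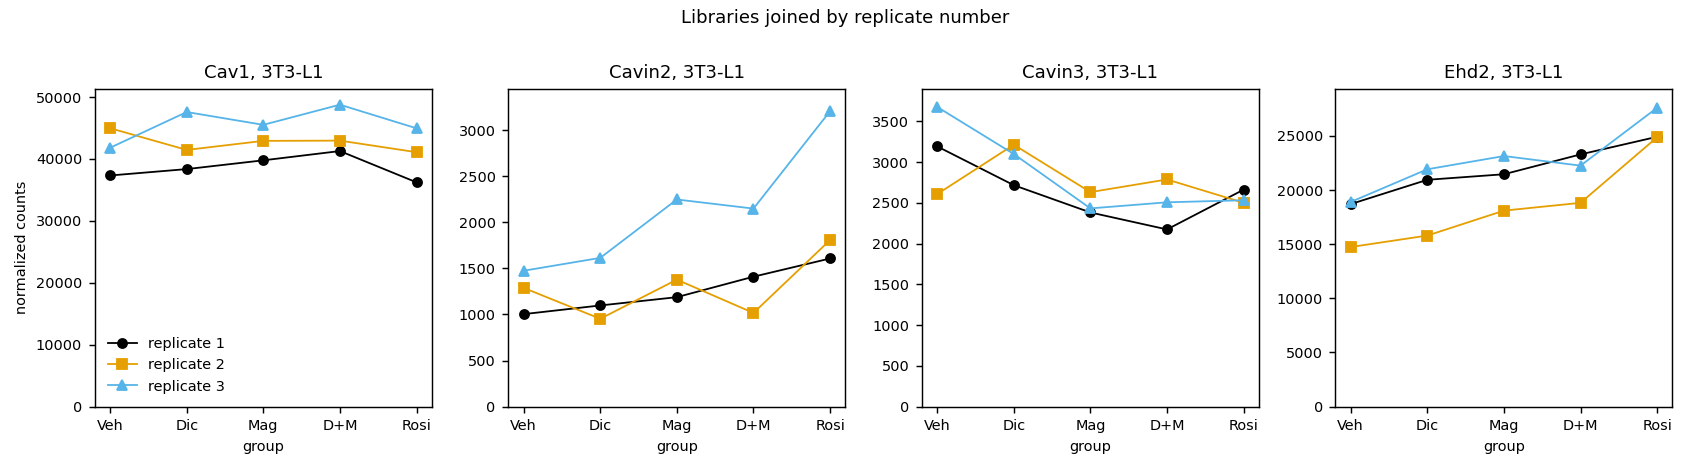
Normalized counts (vertical axes, from 0) of Cav1, Cavin2, Cavin3 and Ehd2 in the 5 groups of 3T3-L1 libraries, joined by replicate number; the lines mark shared numbers, not a time course. Replicate 3 is the highest Cavin2 library in all 5 groups, and replicate 2 is the lowest Ehd2 library in all 5.

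Porcine CAVIN2 (ENSSSCG00000026618), on the minus strand of chromosome 15 from 96474284 to 96490016, rose with the combination. It read 635, 610 and 629 in vehicle, 718, 749 and 780 with dicoumarol and 580, 671 and 694 with magnolol. The combination gave 818, 886 and 1068, above every other porcine library, and rosiglitazone gave 651, 792 and 765. The log2 fold change with the combination was 0.55 (SE 0.10, adjusted p = 0.00128), a level 46.9% higher, and this call held in every alternative run. With dicoumarol it was 0.26 (SE 0.10, adjusted p = 0.314) and with rosiglitazone 0.23 (SE 0.10, adjusted p = 0.183). In both, the libraries lay above those of vehicle without a call. The same held for the libraries of 9.8% of all genes tested with dicoumarol and 10.5% with rosiglitazone, whether called or not.

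Markers of smooth muscle or myofibroblasts, cells that also carry many caveolae, were higher in the same porcine group. Of 7 such markers, 6 rose with the combination, where 6.11% of all genes were called higher, and 4 with magnolol (2.96%). With rosiglitazone 2 rose (5.8%) and with dicoumarol 2 rose (0.911%), and none fell. Their summed level was 182781 to 201834 normalized counts with the combination and 112675 to 134118 in vehicle. Median log2 fold changes of the list were 0.57 for dicoumarol, 0.75 for magnolol, 0.89 for the combination and 0.37 for rosiglitazone. In mouse, with rosiglitazone, 3 of 5 tested markers fell and 1 rose, where 19.9% of all genes were called lower and 20.3% higher. The summed level of the list in mouse went from 3153 to 5806 in vehicle to 1546 to 2725 with rosiglitazone.

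Fibroblast and preadipocyte markers differed between the groups as well. Of 8 tested in pig, 2 rose and 3 fell with the combination, where 6.11% of all genes were called higher and 4.06% lower. With rosiglitazone 3 fell and none rose, where 5.02% of all genes were called lower and 5.8% higher. The summed level of these markers was 1651846 to 1800768 normalized counts in vehicle, 2559035 to 3038642 with the combination and 1264425 to 1403564 with rosiglitazone. In mouse, 8 of 11 such markers fell with rosiglitazone and none rose, where 19.9% of all genes were called lower and 20.3% higher. The median log2 fold change of these 11 markers was -0.64. The part of either marker list in the values of the coat genes was not tested.

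Cavin3, a cavin that binds the coat through cavin-1, had log2 fold changes of opposite sign in the 2 systems in all 4 comparisons with vehicle. Mouse Cavin3 (ENSMUSG00000037060), on the minus strand of chromosome 7 from 105129290 to 105131507, read 3194, 2608 and 3679 in vehicle. It read 2383, 2633 and 2433 with magnolol, 2175, 2788 and 2508 with the combination and 2663, 2502 and 2533 with rosiglitazone. Vehicle replicate 2, at 2608, lies inside or at the edge of the treated ranges, and the other 2 vehicle libraries lie above all 9 libraries of these 3 groups. The log2 fold changes were -0.34 with magnolol (adjusted p = 0.281), -0.34 with the combination (adjusted p = 0.123) and -0.29 with rosiglitazone (adjusted p = 0.0632), each with SE 0.12 and none called. With the replicate number as a block the adjusted p of the rosiglitazone comparison was 0.0386. Without vehicle replicate 2, the adjusted p was 0.0306 for the combination and 0.0094 for rosiglitazone.

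Porcine CAVIN3 (ENSSSCG00000014633), on the plus strand of chromosome 9 from 3378207 to 3379847, read 3038, 2942 and 2710 in vehicle and 3380, 3706 and 3267 with the combination. The 2 groups do not overlap. This gave a log2 fold change of 0.25 (SE 0.07, adjusted p = 0.0272). This call was lost without a filter on low genes (0.0505), without the variance trend (0.0558), with only the 2 groups compared (0.0571), and without vehicle replicate 3 (0.116), combination replicate 1 (0.057) or combination replicate 2 (0.121). With dicoumarol the libraries, 3167 to 3327, also lay above those of vehicle, and the log2 fold change of 0.18 was not called (adjusted p = 0.328). Libraries of 9.8% of all genes tested lay above vehicle in the dicoumarol comparison.

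Cavin4, the muscle cavin, was close to the limit of detection in both systems. Mouse Cavin4 (ENSMUSG00000028348), on the plus strand of chromosome 4 from 48663514 to 48673502, read 2.67, 5.99 and 4.65 normalized counts in vehicle and 16.8, 14.1 and 7.41 with rosiglitazone. The group means were 4.44 (vehicle), 6.91 (dicoumarol), 9.32 (magnolol), 11.1 (combination) and 12.8 (rosiglitazone), with overlap between every pair of neighbours. In a fit with no filter on low genes the log2 fold change with rosiglitazone was 1.32 (SE 0.41, adjusted p = 0.0242), and it was 1.20 with the combination (adjusted p = 0.157). Porcine CAVIN4 (ENSSSCG00000037954), on the plus strand of chromosome 1 from 242308977 to 242320047, read 10.2, 13.3 and 17.1 in vehicle and 7.79, 6.85 and 10.5 with rosiglitazone. Without a filter its log2 fold change with rosiglitazone was -0.62 (adjusted p = 0.467). Of 10 skeletal or cardiac muscle genes, 5 were found in mouse and 8 in pig, and only 2 and 1 of them had means of 10 or more.

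Comparisons between treatments asked whether the combination differed from each compound and from rosiglitazone. In mouse, 0 of 6 members were called for the combination against dicoumarol (background 0.0254%) and 0 against magnolol (background 0%), with 1 and 0 at an unadjusted p under 0.05 in limma, beside 8.1% and 2.14% of all genes. Against dicoumarol, Cavin3 had a log2 difference of -0.28 (95% interval -0.53 to -0.03). Rosiglitazone against the combination gave 1 call of 6 (background 18.3%): Cavin1 was higher with rosiglitazone, by a log2 difference of 0.34 (SE 0.10, adjusted p = 0.0287). This call was lost without a filter (0.0549), with only the 2 groups compared (0.0734), and when any of combination replicates 2 and 3 or rosiglitazone replicates 1, 2 and 3 was left out (0.05 to 0.101). With the replicate block, 3 of 6 members were called (background 33.3%), all higher with rosiglitazone: Cavin1 (adjusted p = 0.00372), Cavin2 (0.00761) and Ehd2 (0.0183).

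In pig, CAVIN2 was higher with the combination than with magnolol, by a log2 difference of 0.51 (SE 0.10, adjusted p = 0.0241), and this was the 1 call of 6 (background 0.621%). The libraries do not overlap, with 580 to 694 for magnolol and 818 to 1068 for the combination. This was so for 2 of 6 members, beside 12.1% of all genes tested. The call was lost without a filter (0.0729), without the variance trend (0.0741), with only the 2 groups compared (0.153), and without magnolol replicate 1 (0.164) or 2 (0.059) or combination replicate 2 (0.0599) or 3 (0.124). Against dicoumarol, 0 of 6 were called (background 2.35%), with 2 at an unadjusted p under 0.05 in limma (12.7% of all genes), and CAVIN2 had a log2 difference of 0.29 (95% interval 0.08 to 0.51, adjusted p = 0.18).

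Rosiglitazone against the combination in pig also gave 1 call of 6 (background 17%). CAVIN2 was lower with rosiglitazone, by a log2 difference of -0.32 (SE 0.10, adjusted p = 0.0345), and it lost the call without a filter (0.0706), without the variance trend (0.0565), with only the 2 groups compared (0.131), and without combination replicate 2 (0.0561) or 3 (0.176) or rosiglitazone replicate 1 (0.13) or 3 (0.0504). With the replicate block, 3 of 6 were called (background 24.9%). In that fit CAV2 was higher with rosiglitazone (log2 difference 0.29, adjusted p = 0.0135) and CAVIN3 lower (log2 difference -0.20, adjusted p = 0.00466). Without the block their adjusted p-values were 0.0622 and 0.0548, and neither gene's libraries overlapped between the 2 groups. Libraries of 3 of 6 members, CAV2, CAVIN2 and CAVIN3, did not overlap, beside 29.7% of all genes tested. Without rosiglitazone replicate 2, EHD2 was lower with rosiglitazone (log2 difference -0.26, adjusted p = 0.0267).

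The interaction term compares the log2 effect of the combination with the summed log2 effects of dicoumarol and magnolol alone. No member was called in mouse (background 0%) or in pig (background 0.081%), and none had an unadjusted p under 0.05 in limma, beside 0.496% and 3.93% of all genes. The intervals are wide. For mouse Cavin2 the interaction was -0.03 with a 95% interval of -0.94 to 0.88, and for porcine CAVIN2 it was 0.24 with an interval of -0.06 to 0.55.

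Among other genes tied to caveolae, those called with rosiglitazone in mouse were all lower. Of 14 such genes (including the pacsins, the other EHD proteins, dynamin-2, filamin A and ROR1), 11 were tested in mouse and 6 of these fell with rosiglitazone, with none higher, where 19.9% of all genes were called lower and 20.3% higher. The fibroblast and preadipocyte markers, of which 8 of 11 fell in the same comparison, moved with them, and their part in it was not tested. The median log2 fold change of the 11 tested caveola-associated genes was -0.32, beside 0.00 for all genes tested and 0.29 for the 6 coat genes. Ehd3, the paralog of Ehd2 that works on endosomes, fell from 3539 to 1131 normalized counts, a log2 fold change of -1.65 (SE 0.12, adjusted p = 1.89e-07). Ror1, a receptor that binds caveolin-1 and cavin-1, fell by 1.19 on the log2 scale (adjusted p = 0.00119), and Flna, the filamin that links caveolin-1 to actin, fell by 0.98 (adjusted p = 0.000119). With the combination, Ehd3 fell by 0.49 on the log2 scale (adjusted p = 0.0274), the 1 call of 11 (1.36% of all genes called lower). It lost this call without the variance trend (0.0603), vehicle replicate 1 or 3, or any 1 combination replicate (0.0558 to 0.128). With the replicate number as a block, Ehd3 was also called lower with magnolol (adjusted p = 0.00838).

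In pig, 10 of these genes were tested. With the combination 2 were higher and 1 lower, where 6.11% of all genes were called higher and 4.06% lower. With rosiglitazone 1 was higher and 1 lower, where these shares were 5.8% and 5.02%. EHD3 rose with rosiglitazone by a log2 fold change of 0.42 (SE 0.08, adjusted p = 0.00269) and with magnolol by 0.43 (adjusted p = 0.005). ROR1 fell with rosiglitazone by 0.89 on the log2 scale (adjusted p = 1.91e-06). FLNA rose with the combination by 0.39 (adjusted p = 0.0186), but under quantile normalization its log2 fold change was 0.07 (adjusted p = 0.793). That call was also lost without a filter (0.0719), with only the 2 groups compared (0.067), and without vehicle replicate 3 (0.0785) or combination replicate 1 (0.0663) or 2 (0.065). FYN, a kinase found with caveolin-1, fell with the combination by 0.22 on the log2 scale (adjusted p = 0.0289). It lost the call without the variance trend (0.055), with only the 2 groups compared (0.0706), and without vehicle replicate 1 (0.113) or 3 (0.104) or combination replicate 1 (0.0774) or 2 (0.102). Cav3, the muscle caveolin, was listed at 0 in every porcine library.

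Flotillins and related raft scaffolds, which mark flat membrane domains, were counted in the same way. With rosiglitazone in mouse, 1 of 5 was higher and 1 lower, where 20.3% of all genes were called higher and 19.9% lower. In pig none of 4 was called in any comparison with vehicle, where between 1.94% and 10.8% of all genes were called.

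Among receptors and transporters known from fat cell caveolae, 3 of 7 rose and 3 fell with rosiglitazone in mouse, where 20.3% of all genes were called higher and 19.9% lower. The fatty acid transporter Cd36 went from 234 normalized counts in vehicle to 7455, a log2 fold change of 5.02 (SE 0.50, adjusted p = 2.01e-06). Slc2a4, the insulin-responsive glucose transporter, which is also among the adipocyte markers, rose by 4.70 (adjusted p = 4.74e-06), and the lipoprotein receptor Scarb1 rose by 2.63 (adjusted p = 2.43e-08). Slc2a4 went from 7.50 normalized counts in vehicle, under the mean of 10 set for testing, to 222 with rosiglitazone. S1pr1, the sphingosine phosphate receptor, fell by 1.30 on the log2 scale (adjusted p = 5.73e-05), and Igf1r, the IGF-1 receptor, fell by 0.80 (adjusted p = 0.000386). Cd36, Slc2a4 and Scarb1 were also called higher with magnolol and the combination, 3 of 7 in each, beside 1.07% and 3.86% of all genes. Their log2 fold changes were 3.16 and 3.39 (Cd36), 2.56 and 2.66 (Slc2a4), and 1.22 and 1.48 (Scarb1). With magnolol, Slc2a4 lost the call without the variance trend (0.0652), vehicle replicate 2 or 3, or magnolol replicate 1 or 3 (0.0832 to 0.129). Cd36 lost it without magnolol replicate 1 (0.0517). With the replicate number as a block, Cd36 (adjusted p = 0.00232) and Scarb1 (0.0114) were also called higher with dicoumarol, and S1pr1 (0.00887) and Igf1r (0.0291) lower with the combination.

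Of 7 tested in pig, 3 rose and 1 fell with rosiglitazone, where 5.8% of all genes were called higher and 5.02% lower. With the combination 3 rose, where 6.11% of all genes were called higher. With magnolol 2 rose (2.96%) and with dicoumarol 1 rose (0.911%). CD36 went from 1824 normalized counts in vehicle to 17690.4 with rosiglitazone, a log2 fold change of 3.27 (SE 0.10, adjusted p = 2.84e-13). SLC2A4 rose by 4.07 with the combination (adjusted p = 2.16e-07), from 3.08 normalized counts in vehicle to 65.3. Its means in vehicle and with dicoumarol (9.01) were under the 10 set for testing, so it passed that filter through the other groups. EGFR, the EGF receptor, rose by 0.28 with rosiglitazone (adjusted p = 0.0165), and INSR, the insulin receptor, fell by 0.26 on the log2 scale with rosiglitazone (adjusted p = 0.0245). EGFR lost the call without vehicle replicate 2 (0.0799) or rosiglitazone replicate 1 (0.0549) or 3 (0.0685). INSR lost it with only the 2 groups compared (0.0719) and without vehicle replicate 1 (0.0846) or 2 (0.0674) or rosiglitazone replicate 3 (0.117).

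**Figure D4:**
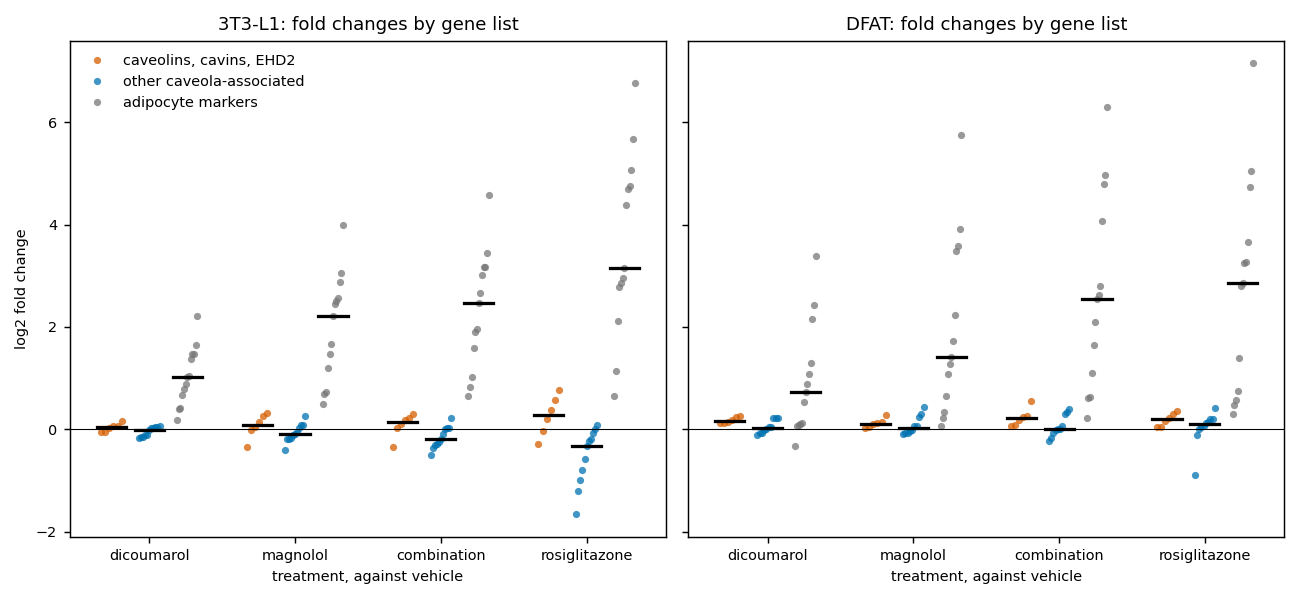
Log2 fold change against vehicle (vertical axis) of each tested gene of 3 lists in 3T3-L1 (left) and DFAT cells (right), by treatment; bars mark the list medians. The coat genes stay between -0.34 and 0.76, while the adipocyte medians reach 3.15 in mouse and 2.86 in pig.

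Members did not vary as one block across libraries. After group means were removed, Pearson's r over the 15 mouse libraries was 0.80 for Cav1 with Cavin2, 0.62 for Cav1 with Cav2 and -0.73 for Cav1 with Cavin1. In pig it was 0.90 for CAV1 with CAV2, 0.90 for CAV2 with CAVIN1, 0.85 for CAVIN3 with EHD2 and 0.03 for CAV1 with CAVIN3. They are descriptions, since the libraries of a table share one scaling and the replicate number was not removed. In every mouse group, Cav1 was lowest in replicate 1 and Cavin2 was highest in replicate 3. The part of the replicate number in these correlations was not tested.

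The genes most alike were ranked by Pearson's r over the 15 libraries, group differences included, among 11558 mouse and 9927 porcine genes with a mean of at least 100. Mouse Cavin1 was most like Fbl (r = 0.96) and Gm3375 (r = 0.95), and Ehd2 was most like Ppp2r5d (r = 0.97) and Fgfrl1 (r = 0.97). Mouse Cav1 was most like Azin1 (r = 0.91) and Inpp5a (r = 0.90), Cav2 most like Naa30 (r = 0.94) and Sacm1l (r = 0.91), Cavin2 most like Stard4 and Chst1 (both r = 0.93), and Cavin3 most like Myl12b (r = 0.94) and S100a6 (r = 0.93). In pig, CAVIN1 was most like DAPK3 (r = 0.97) and REM1 (r = 0.96), CAVIN2 most like SHTN1 (r = 0.89) and QPCT (r = 0.87), and CAV2 most like RTN4 (r = 0.94) and PRKAB2 (r = 0.93). CAV1 was most like WASHC4 (r = 0.87) and BCAT1 (r = 0.83), CAVIN3 most like SIDT2 (r = 0.91) and GBF1 (r = 0.91), and EHD2 most like MFN2 (r = 0.93) and RRAS (r = 0.92). No caveolin, cavin or EHD2 entered this ranking as a candidate.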

How the data were processed

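RNA-seq libraries of 3T3-L1 and DFAT cells (5 groups of 3 each) were prepared with a stranded mRNA kit, per the labels' protocols. The values are a normalized signal per gene, deposited by the authors as counts normalized with DESeq2, per the labels' file descriptions. STAR, DESeq2, bcl2fastq 2.19.1.403 and GRCm38 are named in the submitters' processing notes, with no role. No source used here gives the counting tool, the annotation or a porcine build. Gene positions are those of the deposited tables. Only 2.18% of 24070 mouse genes matched to GENCODE M21 (GRCm38) share its start, so the build of the tables' positions is not settled, and promoter positions, which are GRCm38.p6, must not be set against them. Between 81.6% and 91% of low values per library came out as whole reads within 0.02 reads, so raw counts were not recovered and no count test was run.

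Each table was fitted on its own with limma 3.58.1 (R 4.3.3) on log2(value + 1) with a variance trend, over genes with a mean of at least 10, all 15 libraries in 1 fit, with two-sided tests and Benjamini-Hochberg adjustment over all genes tested. Fold changes are on that scale and understate changes of low genes. The scripts were tested on simulated data, with 50 genes changed at each size between rosiglitazone and vehicle. Log2 changes of 0.3 were recovered for 8% of these genes in mouse and 22% in pig. For changes of 0.6 the shares were 34% and 68%. The lack of a call thus does not show that a gene was unchanged. Alternatives were a replicate block, a pseudocount of 8, no filter, no variance trend, quantile and upper-quartile rescaling, only the groups compared, and leaving out each library. The authors' file gives no depth, and only the reads assigned to listed genes were estimated, from the spacing of low values.

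The labels number the replicates 1 to 3 without saying what a number marks. In mouse, deviations of same-numbered libraries correlated in all 30 pairs (0.11 to 0.46). In pig, all pairs passed 0.1 only among magnolol, combination and rosiglitazone (lowest 0.11). For members and named genes, the report therefore prints the block where it changes a call in mouse or between those porcine groups.

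The members and lists were chosen with earlier results of these data known. Every member is named. Of the other lists, at most 8 genes per system are named, by the number of called comparisons with vehicle and then by size. The genes most alike were the 2 with the highest r. Sequences are from RefSeq: 6 mouse members matched, and no porcine sequence was used. Figures were drawn with matplotlib 3.10.9.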

Additional observations from a re-analysis of the deposited data

Results flagged for a closer look

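For several genes all 3 treated libraries lay on one side of the vehicle mean in 3T3-L1 cells and on the other side in DFAT cells. The difference between the systems was not tested in any of these cases, since the tables were normalized separately. How many of all genes meet this rule was not counted, and the comparisons within a system share their vehicle libraries. Values are the treated mean divided by the vehicle mean. Cavin3 was at 0.786 in mouse and 1.1 in pig with magnolol, and at 0.788 and 1.19 with the combination. With magnolol it was called in neither system (limma adjusted p = 0.281 and 0.329). Cavin4, at under 20 normalized counts throughout, was at 1.56 and 0.622 with dicoumarol, 2.1 and 0.728 with magnolol, 2.51 and 0.633 with the combination, and 2.88 and 0.62 with rosiglitazone. Ehd3 was at 0.757 and 1.35 with magnolol, 0.71 and 1.26 with the combination, and 0.32 and 1.35 with rosiglitazone. S1pr1 was at 0.779 and 1.14 with dicoumarol and at 0.654 and 1.22 with the combination. Flna was at 0.896 and 1.17 with dicoumarol and at 0.816 and 1.31 with the combination. Egfr was at 0.733 and 1.21 with rosiglitazone.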

How the results depend on the processing

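Of 96 results on single members (6 genes, 8 contrasts, 2 systems), 11 were called and 4 of these were called in every alternative: Ehd2 with rosiglitazone in mouse, and in pig CAVIN1 with magnolol and with the combination and CAVIN2 with the combination. No called result changed sign, and 12 uncalled results were called in some alternative. With the replicate block the count of called members went from 0 to 1 for the mouse combination against vehicle, from 2 to 4 for rosiglitazone against vehicle and from 1 to 3 for rosiglitazone against the combination. In pig the block moved it from 0 to 1 for dicoumarol against vehicle (CAVIN3) and for the combination against dicoumarol (CAVIN2). Deviations of same-numbered libraries correlated at 0.07 to 0.19 and at -0.02 to 0.09 in these pairs of groups, not all above 0.1. For porcine rosiglitazone against the combination the block moved the count from 1 to 3. The block changed no other count of called members. For mouse rosiglitazone against the combination, the count of 1 fell to 0 without a filter and with only the groups compared. For porcine rosiglitazone against vehicle the count of 2 became 1 without a filter, 1 without the variance trend and 0 with only the groups compared. For the porcine combination against magnolol the count of 1 became 0 in each of these 3 settings. For porcine rosiglitazone against the combination the count of 1 became 0 in the same 3 settings, 3 under quantile normalization and 2 under upper-quartile rescaling. Leaving out 1 library gave counts of 0 to 1 for the mouse combination against vehicle, 2 to 4 for rosiglitazone against vehicle (4 without vehicle replicate 2) and 0 to 1 for rosiglitazone against the combination. In pig it gave 1 to 1 for magnolol, 2 to 3 for the combination and 1 to 2 for rosiglitazone against vehicle, 0 to 1 for the combination against magnolol and 0 to 3 for rosiglitazone against the combination. The cause was not tested. Over all genes, the block raised the called genes from 0 to 79, 193 to 780 and 821 to 2124 for mouse dicoumarol, magnolol and the combination against vehicle, 4 to 569 for the combination against dicoumarol and 2879 to 5234 for rosiglitazone against the combination. In pig it raised them from 288 to 670, 626 to 1360 and 1508 to 2643 against vehicle, 348 to 893 and 92 to 290 for the combination against dicoumarol and magnolol, and 12 to 34 for the interaction. With only the groups compared, the counts were 106 for mouse magnolol against vehicle, 0 for the mouse combination against dicoumarol and 1458 for mouse rosiglitazone against the combination. They were 931, 44 and 1336 for porcine rosiglitazone against vehicle, the combination against magnolol and rosiglitazone against the combination. Without the variance trend they were 80 for mouse magnolol against vehicle, 0 for the mouse combination against dicoumarol, and 57 and 5 for the porcine combination against magnolol and interaction. The latter was 7 without a filter, and the mouse combination against dicoumarol gave 8 under quantile normalization. Depth limits Cavin4, which was at under 20 normalized counts in every library.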
